A study of Caenorhabditis elegans with 2 samples.

Results

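The genes described here are 5 chaperone genes of C. elegans, out of 19973 protein-coding genes on the nuclear chromosomes. They are hsp-1, whose HSP70 protein works in the cytosol and nucleus, hsp-3 and hsp-4, whose HSP70 proteins (the BiP family) work in the endoplasmic reticulum, and hsp-6 and hsp-60, whose mitochondrial HSP70 and HSP60 proteins work in the matrix. They were picked by name, partly because several of them had a peak summit near the 5′ end in the list of peaks made from both replicates. Their peaks in that list are therefore given as a description, with no test.

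The protein mapped was LIN-26, a zinc-finger protein that epidermal cells of the worm need for their fate, fused to GFP. All libraries came from strain RW12178, which carries GFP inserted at lin-26 by CRISPR (allele st12178), together with a loxP-flanked unc-119(+), and the allele unc-119(tm4063) III. Worms were synchronised as starved L1 larvae after bleaching and collected whole at 64 hours, as young adults. The 2 samples are biological replicates and form 1 group. Chromatin fragments of 200 to 800 bp were precipitated with an antibody against GFP (the labels' antibody entry itself reads lin-26). There is no second genotype, stage or treatment to set the worms against, and whole worms mix all tissues. Whether a peak comes from few cells with much binding or many with little cannot be told apart.

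A peak is given by its interval, its summit and its signal over the control; the signal is compared only within 1 list. Read depth is unknown, since the lists carry no counts, so no counting error can be given. The list from both replicates held 3187 nuclear peaks with a median signal of 112.1, the conservative list 2653, replicate 1 alone 1191 and replicate 2 alone 2083. These thresholded lists hold peaks with a global IDR (irreproducible discovery rate, an estimate of the share of peaks of that rank or better that do not repeat) of at most about 0.01. The ranked lists before thresholding held 85149 nuclear peaks for both replicates, 55940 for replicate 1 and 75474 for replicate 2.

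HSP70 proteins bind short hydrophobic stretches of unfolded proteins and release them in a cycle of ATP hydrolysis that J-domain proteins start and exchange factors reset. HSP60 forms a barrel that encloses a protein while it folds, closed by a small co-chaperonin lid. Each compartment has its own stress response: HSF-1 acts through heat shock elements on cytosolic chaperone genes, IRE-1 and XBP-1 act on hsp-4 in the unfolded protein response of the endoplasmic reticulum, and ATFS-1 acts on hsp-6 and hsp-60 when mitochondria are stressed.

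The sequences below are the 121 bases centred on the thresholded summits upstream of hsp-1, hsp-3, hsp-6 and hsp-60, shown because these are the places where LIN-26::GFP peaks meet the promoters of the genes. They are read 5′ to 3′ on the strand of the gene from the RefSeq genome of assembly WBcel235 (ce11), and capitals mark matches, on either strand, to the motifs described further on.
hsp-1, summit 530 bp upstream, chrIV:17278369-17278489, plus strand: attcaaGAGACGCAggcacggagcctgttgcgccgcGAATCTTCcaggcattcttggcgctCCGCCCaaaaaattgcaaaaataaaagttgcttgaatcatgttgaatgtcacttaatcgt
hsp-1, summit 328 bp upstream, chrIV:17278571-17278691, plus strand: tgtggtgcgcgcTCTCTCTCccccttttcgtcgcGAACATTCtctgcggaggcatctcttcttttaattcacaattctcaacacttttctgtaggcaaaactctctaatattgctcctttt
hsp-3, summit 72 bp upstream, chrX:6092136-6092256, minus strand: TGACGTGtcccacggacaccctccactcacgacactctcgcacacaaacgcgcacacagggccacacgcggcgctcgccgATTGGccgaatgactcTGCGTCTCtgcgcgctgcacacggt
hsp-6, summit 407 bp upstream, chrV:4827107-4827227, minus strand: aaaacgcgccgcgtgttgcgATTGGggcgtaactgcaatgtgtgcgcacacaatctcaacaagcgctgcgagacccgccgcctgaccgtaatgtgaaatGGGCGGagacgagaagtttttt
hsp-60, summit 589 bp upstream, chrIII:1619093-1619213, plus strand: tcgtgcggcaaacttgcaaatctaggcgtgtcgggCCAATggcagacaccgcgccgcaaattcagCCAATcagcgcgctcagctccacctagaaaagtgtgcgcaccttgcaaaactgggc

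In the list from both replicates, 4 of the 5 genes had a peak in the gene or within 2 kb of it, and hsp-4 had none. Over all protein-coding genes that share was 19.1%. The 4 genes held 15 peaks: 6 at hsp-1, 2 at hsp-3, 3 at hsp-6 and 4 at hsp-60. Of these peaks 6 had their summit upstream of the gene, 6 inside it and 3 past its 3′ end. A summit from 1000 bp upstream to 200 bp downstream of an annotated 5′ end, called a promoter summit here, was present at the same 4 genes, against 6.65% of all protein-coding genes. Nothing is read from these counts about the genes as a set, because the choice of genes used that list.

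The genes with peaks differed in how many they had. The 6 peaks of hsp-1 are matched or passed by 11 protein-coding genes in all, hsp-1 included, or 0.0551%. One of its intervals is listed with 2 summits. With each interval counted once, a choice made after seeing the data, its 5 are matched or passed by 32 genes, or 0.160%. Of these 5, chrIV:17278261-17278596 and chrIV:17278463-17278798 overlap each other, so the 5 are not all separate places. Overlapping intervals were not merged for any gene. The 4 peaks of hsp-60 are matched or passed by 115 genes, or 0.576%, the 3 of hsp-6 by 412, or 2.06%, and the 2 of hsp-3 by 1308, or 6.55%. Longer genes have longer windows, and hsp-60 is the longest of the 5 at 6062 bp, while hsp-1 is the shortest at 2372 bp.

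**Figure D1:**
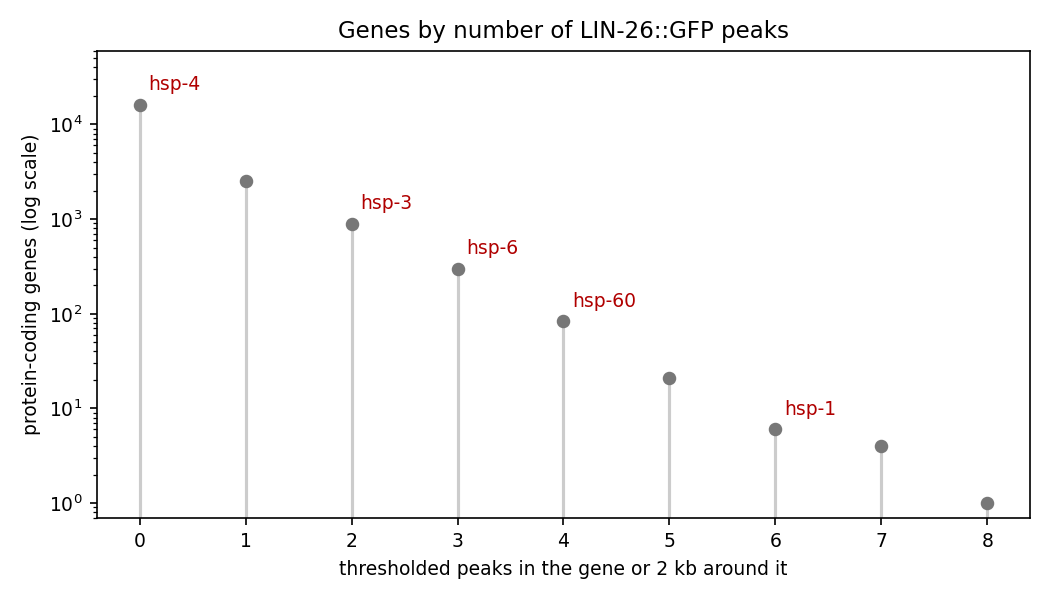
Number of protein-coding genes (vertical axis, log scale) by the number of thresholded peaks of the both-replicate list in the gene or 2 kb around it (horizontal axis). The labels place hsp-4 among the 16149 genes with 0 peaks and hsp-1 among the 6 genes with exactly 6.

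**Figure D2:**
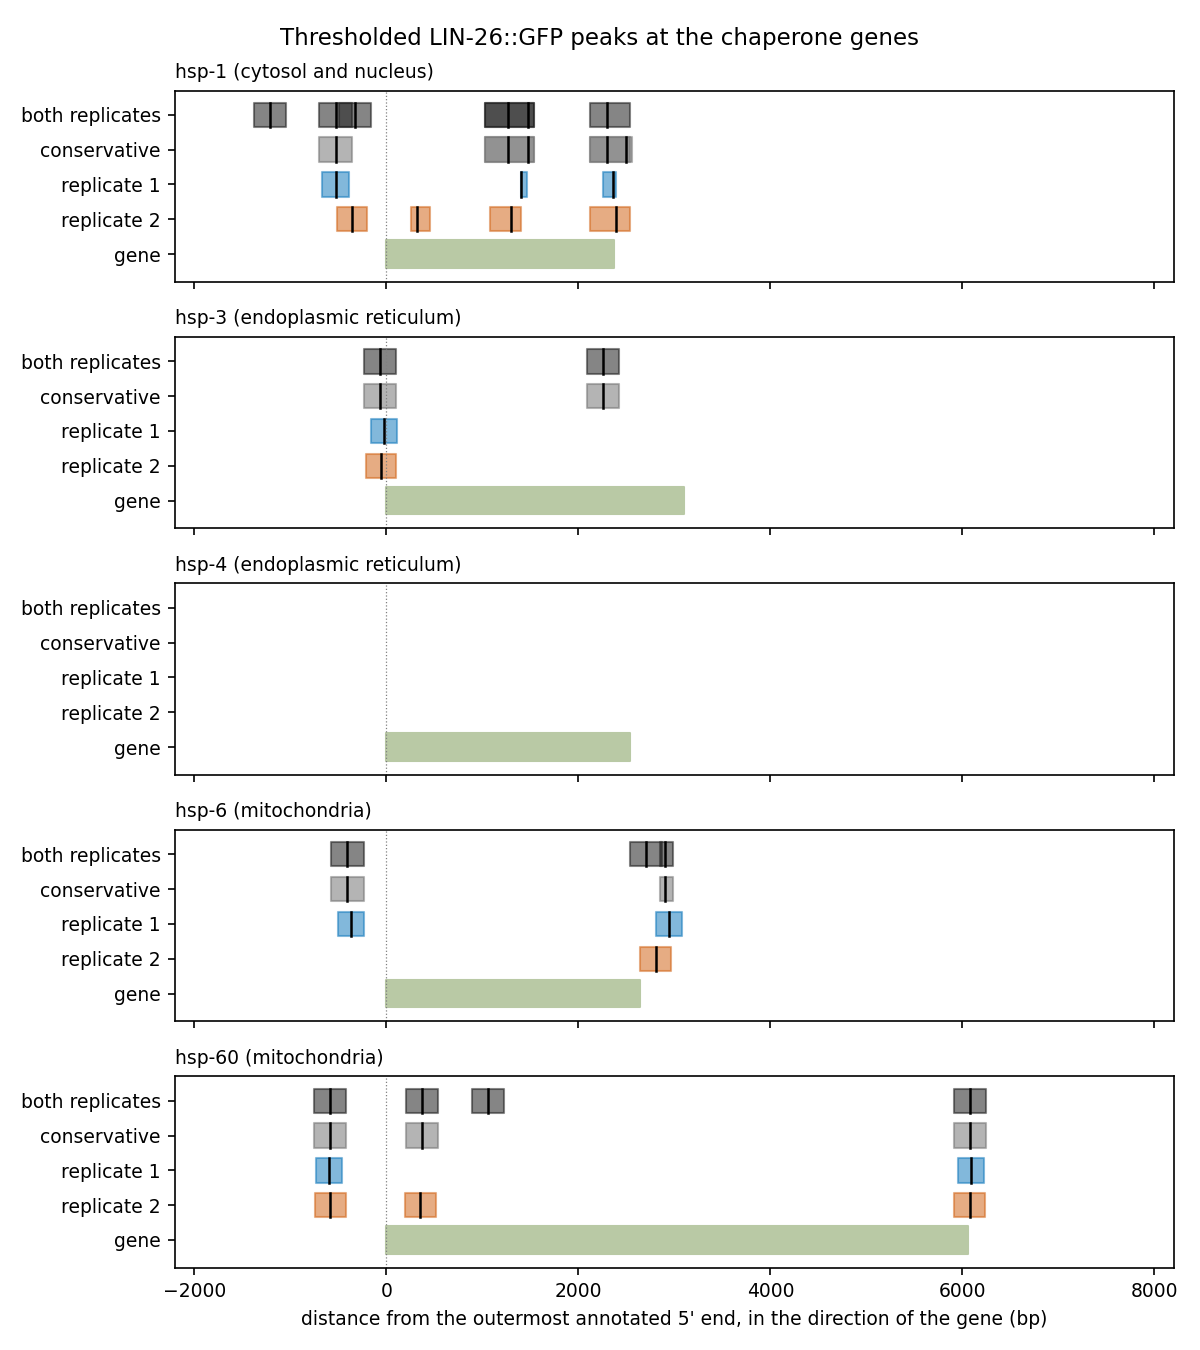
Thresholded peaks (boxes) and their summits (black lines) in the list of both replicates, the conservative list and each replicate's own list, by distance in bp from the outermost annotated 5′ end, read in the direction of the gene; the green bar is the gene. The hsp-4 panel holds no box in any list, and hsp-3 has its strongest peak across the 5′ end.

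The cytosolic gene hsp-1, the constitutive HSP70 of the worm (WBGene00002005, chrIV:17278959-17281330, plus strand), had peaks before, inside and at the end of the gene. Upstream, the first of its promoter summits lay 530 bp before the 5′ end with a signal of 145.1, near the non-coding RNA gene F26D10.23. The next lay 328 bp before it with a signal of 65.3. The peak in replicate 1 had its summit exactly at the first place, with a signal of 75.5 and an IDR of 0.00267. The peak in replicate 2 had its summit 360 bp upstream, near the second place, with a signal of 83.8 and an IDR of 0.000747. Both replicates therefore listed a promoter peak at hsp-1, with summits 170 bp apart, and neither place overlapped a thresholded peak of both by at least 50% of the shorter peak. At the second place replicate 1 had a ranked peak with a signal of only 2.95 and an IDR of 0.762. The conservative list lacked the peak of the second place, whose IDR was 0.566 in the conservative ranked list. The intervals of both places overlap each other.

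The strongest peak at hsp-1 was at the other end of the gene. Its summit lay in the 3′ UTR, 75 bp before the annotated 3′ end, with a signal of 263.2 and an IDR of 6.30e-05. Its signal was the 311th highest of the list. Replicate 1 gave 88.0 there with an IDR of 0.000426, and replicate 2 gave 175.0 with an IDR of 3.06e-05. The summits of the replicates lay 59 and 94 bp further downstream, and that of replicate 2 had passed the 3′ end of the gene. The neighbour nra-1 runs towards hsp-1, so the peak sits where both genes end.

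Inside hsp-1, 1 interval of 503 bp in the coding sequence was listed with 2 summits, 1268 and 1473 bp from the 5′ end, with signals of 134.7 and 29.9. Each replicate had a thresholded peak within it, with 81.3 and an IDR of 0.00383 in replicate 1 and 89.6 and an IDR of 0.00110 in replicate 2. These replicate peaks did not overlap each other: that of replicate 1 ran over chrIV:17280358-17280428 and that of replicate 2 over chrIV:17280042-17280356. The snoRNA gene F26D10.24, at chrIV:17280046-17280169, lies inside the interval and inside the replicate 2 peak, and outside the replicate 1 peak. This interval also has a copy elsewhere: 400 bases of it were 91.0% identical to the pseudogene hsp-2 on chromosome X. No thresholded list had a peak at the hsp-2 copy, and its strongest ranked peak had a signal of 62.2 and an IDR of 0.0313. The placement of reads that fit both loci was not given in the sources used here.

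Of the hsp-1 peaks, the one with the highest IDR lay 1212 bp upstream, in the 3′ UTR of clec-196, a C-type lectin gene. It had a signal of 79.1 and an IDR of 0.00768, just inside the threshold. Neither replicate listed it on its own, with IDR values of 0.114 in replicate 1 and 0.235 in replicate 2. A peak in the coding sequence, with its summit 319 bp from the 5′ end of the gene, was in the thresholded list of replicate 2, with a signal of 98.9, and not in that of both replicates.

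In the endoplasmic reticulum pair, only hsp-3 had thresholded peaks. At hsp-3 (WBGene00002007, chrX:6089028-6092124, minus strand), the promoter summit lay 72 bp upstream of the outermost of 3 annotated 5′ ends. Its signal of 267.0 ranked 302nd, the highest among the 5 genes, and its IDR was 5.85e-05. The replicates listed it with 89.6 and an IDR of 0.000394 in replicate 1, and with 174.9 and an IDR of 3.92e-05 in replicate 2. Their summits were 29 and 58 bp upstream of the same 5′ end, so both replicates placed it just before the gene. No other protein-coding gene had a promoter window over that summit.

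The other peak of hsp-3 lay in the coding sequence with a signal of 104.6 and an IDR of 0.00549. Neither replicate listed it on its own, with IDR values of 0.144 in replicate 1 and 0.0479 in replicate 2, although the conservative list held it. Of this interval, 262 bases were 84.0% identical to a stretch of hsp-4.

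At hsp-4 (WBGene00002008, chrII:7350112-7352645, minus strand), the BiP gene known for its induction in the unfolded protein response, no thresholded list held a peak in the gene or within 2 kb. The ranked list of both replicates held 13 peaks in that window, 1.99 per kb, while the median of all protein-coding genes was 1.08 per kb. At least as many were held by 13.0% of protein-coding genes. In the same list hsp-1 had 1.73 per kb, hsp-3 1.55, hsp-6 2.56 and hsp-60 1.49. The hsp-4 ranked peak with the lowest IDR lay 205 bp past the 3′ end, with a signal of 67.9 and an IDR of 0.0104. Its score of 824 is just outside the lowest score in the thresholded list, 830. In the replicates it had IDR values of 0.294 in replicate 1 and 0.636 in replicate 2. In the promoter window the strongest ranked peak lay 766 bp upstream with a signal of 76.2 and an IDR of 0.183. The difference between hsp-3 and hsp-4 was not tested, since the genes were chosen with these lists in view.

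Of the mitochondrial pair, hsp-60 had the peak with the higher signal in this list, 202.7, against 133.9 for the strongest of hsp-6; the difference was not tested. At hsp-60 (WBGene00002025, chrIII:1619742-1625803, plus strand), the promoter summit lay 589 bp upstream of the outermost 5′ end with a signal of 202.7, ranked 569th, and an IDR of 0.000125. Replicate 1 gave 93.5 with an IDR of 0.000291 and replicate 2 gave 126.6 with an IDR of 0.000170, with summits 596 and 583 bp upstream. The summit is closer to the divergent neighbour Y22D7AL.10, whose 5′ end is 224 bp away. RefSeq names the product of Y22D7AL.10 the mitochondrial 10 kDa heat shock protein, the co-chaperonin lid of HSP60. In mammals the genes of HSP60 and its co-chaperonin also share a divergent promoter. The peak lies in the promoter windows of both genes, and which of them it belongs to cannot be told apart.

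The second strongest peak of hsp-60 lay 19 bp past its 3′ end with a signal of 183.6 and an IDR of 0.000324. It was listed in both replicates, with signals of 82.1 in replicate 1 and 84.7 in replicate 2. That summit is also 810 bp upstream of Y22D7AL.4, which RefSeq names as a TFIID subunit, and so falls in the promoter window of that gene. In the body of hsp-60, a coding summit 367 bp from the outermost 5′ end had a signal of 119.6 and was listed in replicate 2, with an IDR of 0.00414, and not in replicate 1, with an IDR of 0.0865. An intronic summit had a signal of 97.3 and was listed in neither replicate, with IDR values of 0.465 in replicate 1 and 0.0126 in replicate 2.

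At hsp-6 (WBGene00002010, chrV:4824124-4826760, minus strand), the mitochondrial HSP70 gene, the promoter summit lay 407 bp upstream with a signal of 133.9, ranked 1145th, and an IDR of 0.00413. It was listed in replicate 1 with a signal of 57.5 and an IDR of 0.00774, and not in replicate 2, where the signal was 69.5 and the IDR 0.111. It was the strongest peak of hsp-6, and without replicate 1 hsp-6 had no promoter summit. As at hsp-60, a divergent gene is closer: the 5′ end of C37H5.5, a homologue of a nucleolar complex protein, is 193 bp away, and the non-coding genes C37H5.15 and C37H5.16 are within 500 bp.

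The remaining peaks of hsp-6 lay past its 3′ end, at 266 and 64 bp, with signals of 120.3 and 96.1. Their intervals, chrV:4823775-4823911 and chrV:4823892-4824227, overlap each other, and their IDR values were 0.000383 and 0.000382. The conservative list lacked the second, whose IDR was 0.0569 in the conservative ranked list. Each replicate had a thresholded peak over the first, with signals of 49.7 in replicate 1 and 83.4 in replicate 2. The same replicate 2 peak also covered the second, for which replicate 1 had a signal of 27.7 and an IDR of 0.737. The first summit is 435 bp upstream of adss-1, the adenylosuccinate synthetase gene that follows hsp-6 on the same strand, and both summits fall in the promoter window of adss-1. A summit within 500 bp of the annotated 3′ end, a distance chosen after the values were seen, occurred at hsp-1, hsp-6 and hsp-60, or 3 of the 5 genes, against 5.33% of all protein-coding genes.

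Agreement between the replicates differed from peak to peak. Of the 15 peaks, 7 overlapped a thresholded peak of each replicate, 5 of exactly 1 replicate and 3 of neither. Over all peaks of the list, 29.2% overlapped a thresholded peak of each and 37.5% of neither. In the cytosolic gene 3 of 6 peaks were in both replicates, in the endoplasmic reticulum genes 1 of 2, and in the mitochondrial genes 3 of 7. The hsp-1 interval with 2 summits counts for 2 of the 7, and its replicate peaks did not overlap each other. At the other 5 the replicate peaks overlapped each other. With each interval counted once, 6 of 14 overlapped a thresholded peak of each replicate. Overlapping intervals at hsp-1 and at hsp-6 are still counted apart among the 14. The conservative list held 11 of the 15. It had 2653 peaks in all, against 3187 in the list of both replicates. The share of those 3187 that it held was not taken, so nothing is read from the 11. Replicate 1 gave 8 peaks of its own at the 5 genes and replicate 2 gave 9, while the conservative list gave 12. The conservative peak that the list of both replicates lacked was at hsp-1, with a signal of 51.5. Its summit lay 129 bp past the 3′ end, in the 3′ UTR of nra-1. Its IDR was 9.84e-05 in the conservative ranked list and 0.556 in that of both replicates. Its interval, chrIV:17281076-17281513, covers the whole interval of the strongest hsp-1 peak, chrIV:17281076-17281496, which both lists held. That strongest peak had an IDR of 9.79e-05 in the conservative ranked list. The 2 entries are therefore not separate places.

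**Figure D3:**
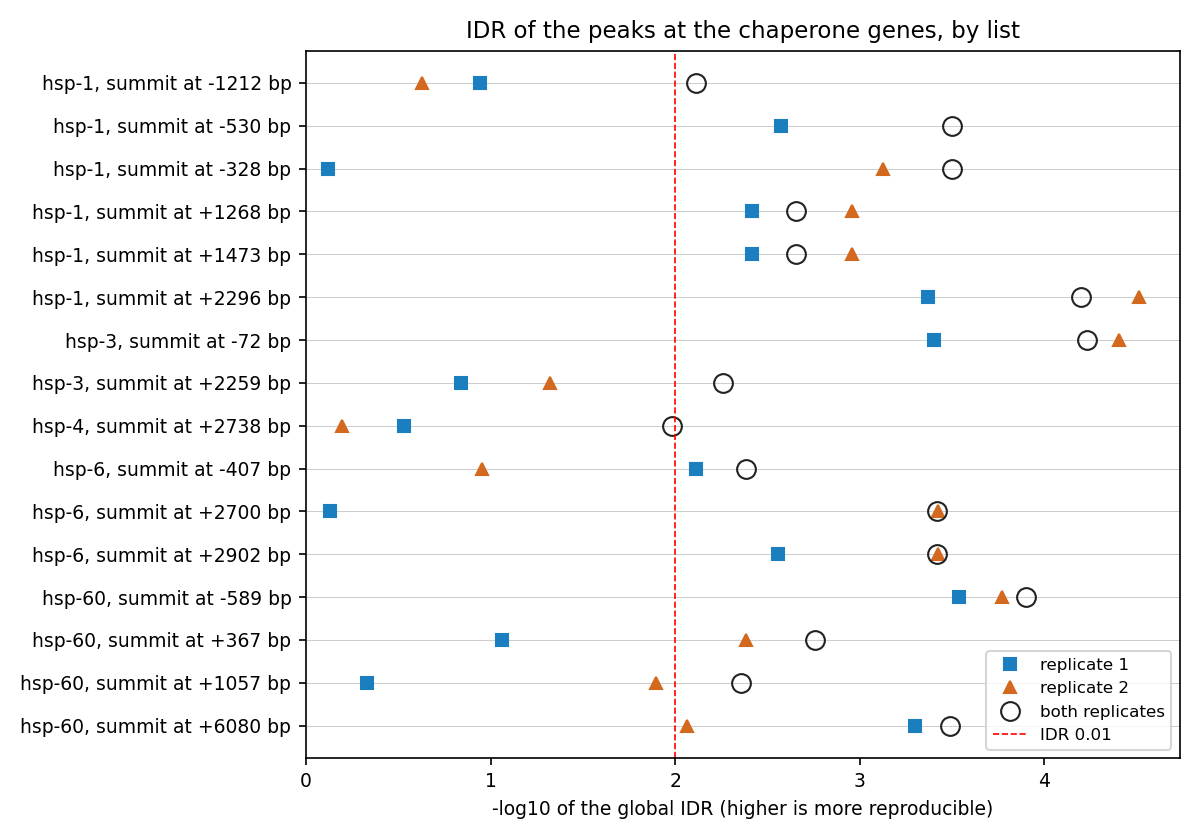
−log10 of the global IDR (horizontal axis) of each of the 15 thresholded peaks and of the hsp-4 peak with the lowest IDR, in the ranked list of both replicates (open circles), replicate 1 (squares) and replicate 2 (triangles); rows give the gene and the summit's distance from the outermost 5′ end. The hsp-1 3′ peak and the hsp-3 promoter peak lie far past the dashed line at an IDR of 0.01 in all lists, the hsp-4 peak lies at the line in the list of both, and 1 hsp-1 row has no replicate 2 peak at 50% overlap.

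Counted by gene, the calls were as follows in the other lists. In the conservative list 4 of the 5 genes had a peak within 2 kb, against 16.9% of all genes, and 4 had a promoter summit, against 5.63%. In replicate 1 alone 4 had a peak, against 8.38%, and 4 a promoter summit, against 2.47%. In replicate 2 alone 4 had a peak, against 13.4%, and 3 a promoter summit, against 4.51%. In each of these lists the gene without a peak was hsp-4, and in replicate 2 the gene that lacked a promoter summit beside it was hsp-6. All lists come from the same 2 replicates and are not separate evidence.

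Placed in the signal order of each replicate's ranked list, the promoter peak of hsp-3 was in the top 0.890% in replicate 1 and the top 0.343% in replicate 2. The promoter peak of hsp-60 was in the top 0.824% and the top 0.763%, and that of hsp-6 in the top 2.15% and the top 2.24%. Over these 2 replicates, the genes whose strongest promoter peaks had the most similar pair of places were C04C11.25 and cutl-23 for hsp-3, F08G2.5 and C09E7.7 for hsp-60, and T28D9.1 and T28D9.11 for hsp-6. The last pair shares 1 peak. The likeness was measured as the distance between the pairs of percents, which was smallest for F08G2.5, at 0.0380. For hsp-1 no pair could be formed, because the replicate 2 peak shares 158 of its 320 bp with the strongest promoter peak, or 49.4%, just under the 50% asked for; that replicate 2 peak was in the top 1.54% of its list.

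The promoter sequences were searched for letters of the known stress elements and of general promoter motifs, on both strands, from 1000 bp upstream to 200 bp downstream of the outermost 5′ end. Heat shock elements were searched as GAANNTTC and as TTCNNGAA, which overlap each other when 3 units stand in a row. Single matches are common: 57.2% of all promoters hold GAANNTTC and 57.9% hold TTCNNGAA. A run of 3 units, a form chosen after its matches were seen, was in 7.69% of promoters, and in hsp-1, hsp-6 and hsp-60. In hsp-1 the runs start 903 and 144 bp upstream and lie outside its peaks. In hsp-6 the run starts 307 bp upstream and in hsp-60 it starts 697 bp upstream, both inside the thresholded promoter peak and outside the printed 121 bases. Over whole peak intervals, each counted once, 3 of 14 at the 5 genes held such a run, against 2.29% of all 3183. These were the promoter peaks of hsp-6 and hsp-60 and a further interval of hsp-60. Since the form was chosen after its matches at these genes were seen, the counts are a description. None of the printed windows holds one.

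For the endoplasmic reticulum genes, the full unfolded protein response element TGACGTGG matched no member, while 3.55% of promoters hold it. Its first letters, TGACGTG, chosen after the matches were seen, stand at 132 bp upstream in hsp-3, at the edge of the printed window and inside the peak, and at 83 bp upstream in hsp-4, where no thresholded peak lies. That shorter form was in 9.42% of promoters. CCAAT followed by CCACG after 9 bases, and the E-box CACGTG, matched none of the 5 genes, with 0.105% and 18.4% of promoters holding them.

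The letters GGGCGG, which KLF and Sp zinc-finger proteins are known to bind, were in the promoters of all 5 genes, and in 19.2% of all promoters. The matches of hsp-1, hsp-6 and hsp-60 lay inside a thresholded peak, and those of hsp-3 and hsp-4 did not. CCAAT, chosen after the matches were seen, was in the printed windows of hsp-3, of hsp-6 and, with 2 matches, of hsp-60. It is common, in 21.6% of the 121 bp windows at all summits. GAGACGCA, letters that resemble the motif of the zinc-finger protein EOR-1 and were also chosen after the matches were seen, was in the promoter peaks of hsp-1, 584 bp upstream, and hsp-3, 36 bp upstream. It was in 3.92% of summit windows and 8.07% of promoters. The run GAGAGAGA was in the promoters of hsp-1, inside its peaks, and hsp-6, outside, and in 8.69% of promoters. TGATAA, the site of GATA factors, was in hsp-1, hsp-3 and hsp-6, and in 72.0% of promoters.

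**Figure D4:**
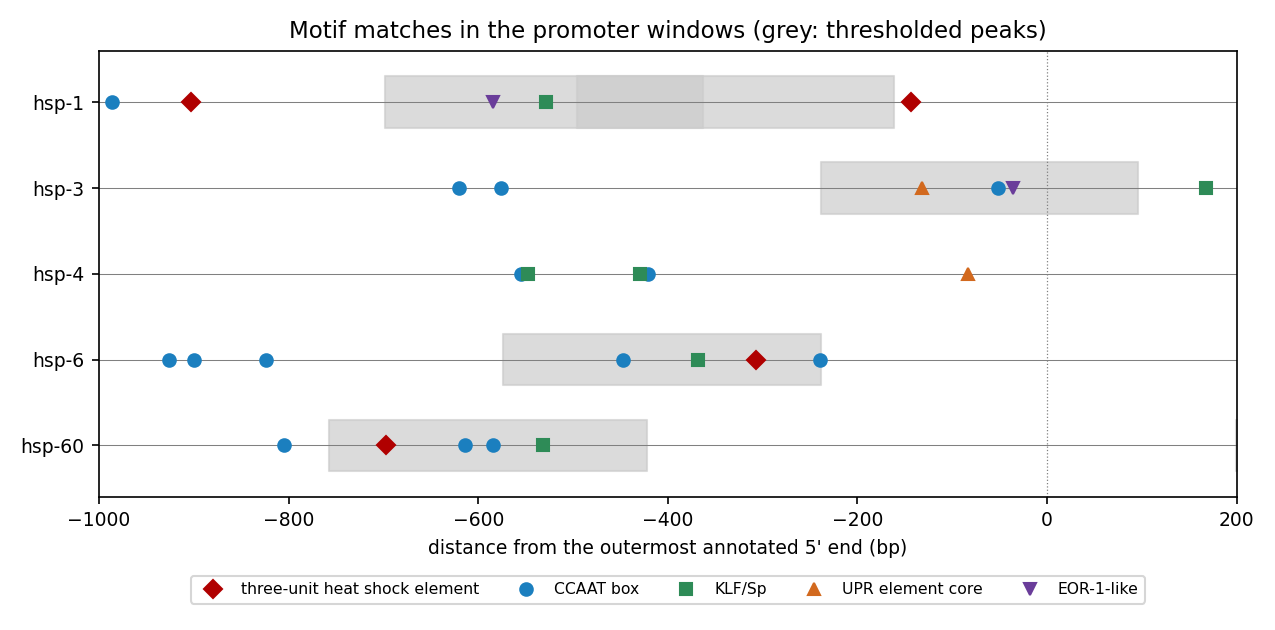
Motif matches (symbols) from 1000 bp upstream to 200 bp downstream of the outermost 5′ end of each gene (horizontal axis, bp), with thresholded peaks of the both-replicate list as grey boxes. Matches of the 3-unit heat shock element (diamonds) lie inside a grey box in hsp-6 and hsp-60 and outside in hsp-1, and hsp-4 has matches and no box.

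Base composition of the peaks varied widely. The 121 bp windows at the 15 summits ran from 29.8% to 65.3% GC with a median of 44.6%, against 19.0% to 75.2% and a median of 47.1% at all 3187 summits. The highest was the hsp-3 promoter and the lowest the hsp-6 summit 64 bp past the 3′ end. The promoter peaks of hsp-1, hsp-3, hsp-6 and hsp-60 had no other match in the genome by BLAST.

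Other chaperone genes were taken from 8 lists by function, and some genes are shared between lists. Of 97 names 96 were found in the annotation, and 24 of these had a promoter summit in the list of both replicates, and of the 92 that are not among the 5 genes, 21 did, or 22.8%, against 6.65% of all protein-coding genes. Replicate 1 alone gave 12 of the 96, against 2.47% of all protein-coding genes, and replicate 2 alone gave 17, against 4.51%. The conservative list gave 17, against 5.63%. The lists and genes were chosen with earlier results of these data known, so the counts are a description.

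Among HSP70 and HSP110 genes, 6 of 9 had a promoter summit, against 6.65% of all protein-coding genes. The 6 include hsp-1, hsp-3 and hsp-6, which were chosen partly for their summits. Replicate 1 alone gave 5 of the 9 and replicate 2 alone 4, against 2.47% and 4.51% of protein-coding genes. The divergent heat-inducible genes F44E5.4 and F44E5.5 share 1 summit between them, with a signal of 232.0, listed in both replicates with 113.4 in replicate 1 and 121.2 in replicate 2. It lies 123 bp from F44E5.4 and 228 bp from F44E5.5. Which of them it belongs to cannot be told apart. The nucleotide exchange gene hsp-110 had 83.9 and was listed in neither replicate.

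Genes of the J-domain proteins, the partners that start the HSP70 cycle, had a promoter summit in 4 of 29 cases. That is 13.8%, against 6.65% of all protein-coding genes. Replicate 1 alone gave 3 of the 29 and replicate 2 alone 3, against 2.47% and 4.51%. The strongest of these summits was at dnj-28, with a signal of 328.3, and the next at dnj-13, with 164.9, both listed in both replicates. For HSP70 and HSP90 cofactors and heat shock regulators the count was 4 of 13, against 6.65%. Of these only bag-1, an exchange factor of HSP70, was listed in both replicates, with a signal of 150.9. The HSP90 list had 1 of 3, against 6.65%. This was the endoplasmic reticulum gene enpl-1, with 140.1. It was listed in replicate 2 and not in replicate 1, where the IDR was 0.0668. The gene enpl-1 is also counted in the endoplasmic reticulum list below.

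Among 15 genes of folding and the unfolded protein response in the endoplasmic reticulum, 6 had a promoter summit, against 6.65% of all protein-coding genes. The 6 include crt-1, the calreticulin gene, with 137.8, listed in replicate 2, and pdi-1, a protein disulfide isomerase gene, with 117.0, listed in replicate 1. None of these 6 peaks was listed in both replicates, against 29.2% of all peaks. This list leaves out hsp-3 and hsp-4, and the hsp-3 promoter peak was listed in both replicates. Replicate 1 alone gave a promoter summit at 1 of the 15 and replicate 2 alone at 2, against 2.47% and 4.51% of protein-coding genes. In the mitochondrial list 2 of 13 had a promoter summit, against 6.65% of all protein-coding genes. These were the protease gene clpp-1 with 159.5, close to 2 tRNA genes, and atfs-1, the regulator of the mitochondrial response, with 86.7. Both peaks were listed in replicate 2 and not in replicate 1. Replicate 1 alone gave 0 of the 13 and replicate 2 alone 3, against 2.47% and 4.51%. The CCT chaperonin, the cytosolic relative of HSP60, had 2 of 8, against 6.65%. They were cct-7 with 146.2 and cct-8 with 137.3. Both were listed in replicate 2 and not in replicate 1, where their IDR was 0.161 and 0.360. No small heat shock protein gene of 12 had a promoter summit in the list of both replicates, against 6.65% of all protein-coding genes. Replicate 2 alone gave 1, against 4.51% of all protein-coding genes. A peak within 2 kb was present at 7, or 58.3%, against 54.2% over the genes of all 8 lists and 19.1% of all protein-coding genes. Within 2 kb, replicate 1 alone gave 1 of the 12 and replicate 2 alone 6, against 8.38% and 13.4% of protein-coding genes.

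**Figure D5:**
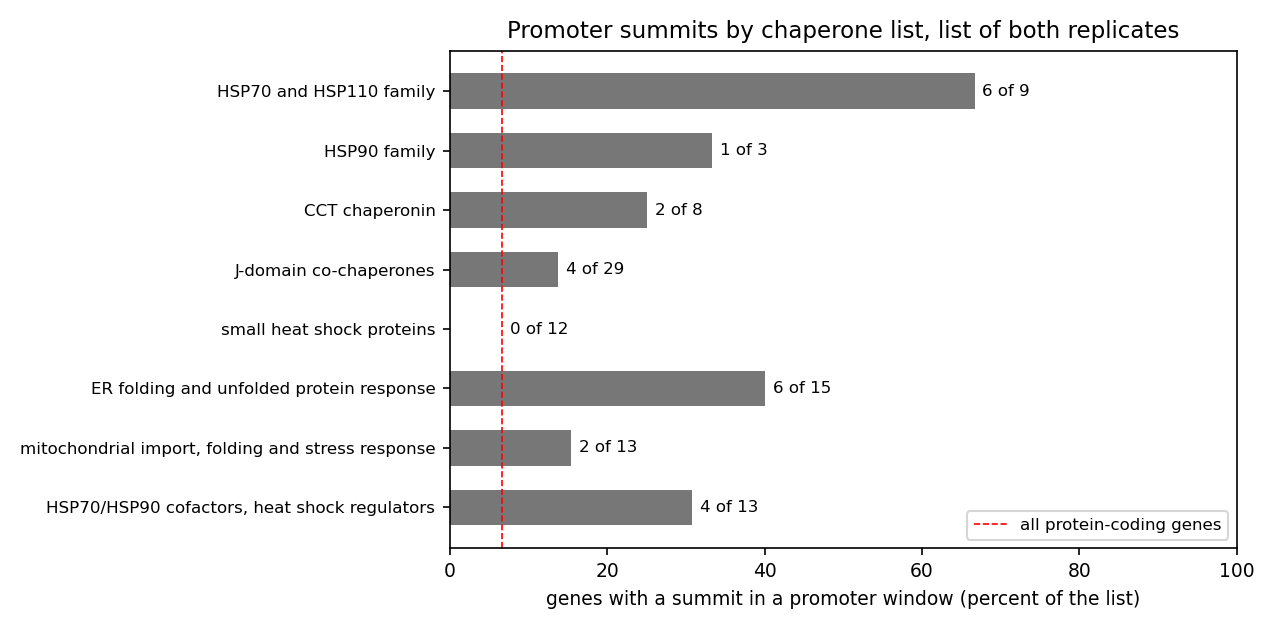
Share of each chaperone list with a promoter summit in the list of both replicates (horizontal axis, percent; bars, with counts beside them); the dashed line is the share of all protein-coding genes, 6.65%. The HSP70 and HSP110 bar, 6 of 9 genes, includes hsp-1, hsp-3 and hsp-6, which were chosen partly for their summits, and the small heat shock proteins stand at 0 of 12. Some lists share genes: enpl-1 counts in both the HSP90 and the endoplasmic reticulum bars.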

How the data were processed

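Deposited peak lists in narrowPeak form were used, for each of 2 replicates and for the whole series, on assembly ce11 per the labels. The deposited signal is relative to a control, deposited scores are whole-number transforms of the IDR, and the authors' −log10 of the global IDR is in the ranked lists. Aligner, peak caller and IDR settings were not given in the sources used here. Peaks on the 6 nuclear chromosomes were compared with the Ensembl release 115 annotation (29314 5′ ends of protein-coding genes) and the WBcel235 RefSeq genome. A main peak matched a replicate peak at an overlap of at least 50% of the shorter. Named were the 5 genes, neighbours with the nearest 5′ end or non-coding genes within 500 bp of a summit, up to 4 genes per chaperone list with the strongest promoter peaks, and the 2 most similar genes per member; hsp-2, hsp-110, Y22D7AL.4 and nra-1 were added after their values were seen. Members, lists and motifs were chosen with earlier results of these data known. No test across genes was made. The overlap functions were tested on simulated data. Alternatives covered other lists, IDR thresholds, windows and overlap rules. The 4 signal columns of IDR inputs name no sample and were left out. Replicates are biological per the labels. Python 3.11.15, numpy 2.4.6, pandas 2.3.3, matplotlib 3.10.9 and BLAST 2.17.0 were used.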

Additional observations from a re-analysis of the deposited data

How the results depend on the processing

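The number of genes with a peak and with a promoter summit, and the number whose strongest peak is in both replicates, stayed within 1.5 times under all alternatives run. Counts out of 5 genes have little room to leave that limit. The number with a promoter summit, 4, was 3 in replicate 2 alone and 3 at an IDR of up to 0.001. It was also 3 for windows from 500 bp upstream to 100 bp downstream. The number of thresholded peaks at the 5 genes, 15, was 9 for the genes alone without flanks and 8 at a global IDR of up to 0.001, and the replicates' own lists gave 8 to 9. The share of all protein-coding genes with a peak, 19.1%, was 33.1% at an IDR of up to 0.05, 8.96% at up to 0.001 and 8.87% for the genes alone, and the replicates' own lists gave 8.38% to 13.4%. At an IDR of up to 0.05 all 5 genes had a peak, hsp-4 included. For the chaperone lists, 24 genes with a promoter summit became 12 to 17 in the replicates' own lists. Of 52 alternative values, 19 moved beyond their limit and 33 did not, and the cause was not tested. The limit was 1.5 times for counts and shares. For the place in the signal order and the 5′ distance of each strongest peak, it was the standard deviation of the replicates' values. That limit is narrow where the replicates are close. The strongest hsp-60 peak, in the top 0.698%, counted as moved at 0.824% in replicate 1 and 0.763% in replicate 2. No paired analysis was possible because there is 1 group. Counting each interval once, chosen after seeing the data, gave 14 peaks, with overlapping intervals at hsp-1 and hsp-6 still counted apart. Read depth is unknown, so no counting error is given.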
